A study of Homo sapiens with 15 samples.

Results

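A set of 10 enzymes of fatty acid synthesis and desaturation, given by their gene symbols FASN, SCD, ACACA, ACLY, ACSS2, ELOVL6, FADS1, FADS2, ME1 and LPIN1, were followed across the vehicle and treated groups. They were taken as the rows whose gene symbol equalled one of these names, which gave 10 of the 60107 genes in the data, each with 1 row. The rule reads gene symbols alone, although the set was proposed with earlier results of these data known. All 10 passed the filter on low counts.

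Fatty acids are built in the cytosol from acetyl-CoA, which ACLY makes from citrate and ACSS2 from acetate. ACACA carboxylates acetyl-CoA to malonyl-CoA, and FASN condenses these units to palmitate with NADPH, part of which ME1 supplies. ELOVL6 lengthens palmitate, SCD places the first double bond, FADS2 and FADS1 desaturate polyunsaturated chains, and LPIN1 makes diacylglycerol from phosphatidate for triglyceride and phospholipid assembly. Many of these genes are known targets of the sterol regulatory element binding proteins (SREBPs), which INSIG1 holds in the endoplasmic reticulum when sterols are plentiful. SREBPs often act together with factors that bind CCAAT or GC boxes.

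Total RNA was sequenced from MIA PaCa-2, an established human pancreatic carcinoma cell line, in 5 groups of 3 libraries. The groups were vehicle (Ctrl), Lys05, a dimeric chloroquine that acts on lysosomes, and the agents BAQ12, BAQ13 and BAQ12O, each given at 5 µM for 24 h. BAQ12 and BAQ13 are self-assembling lysosomotropic agents made in the study. BAQ12O carries this name in the sample labels and a shorter one in the series text, and is described here by its label alone. Nothing in the labels states that the 3 libraries of a group came from separate cultures, so p-values measure the spread between these samples, which may be technical.

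Upstream sequences are shown first for ACSS2, ELOVL6, ACLY and SCD, which had the largest increases with BAQ13 among the members with an entry in the sequence table. They were taken from RefSeq (GRCh38.p14), run 5′ to 3′ on the strand of the gene up to the RefSeq start, and were cut to the longest stretch that holds no GENCODE 29 exon. Capitals mark CCAAT, or ATTGG where the box lies on the other strand.
SCD, chr10:100346983-100347123, + strand: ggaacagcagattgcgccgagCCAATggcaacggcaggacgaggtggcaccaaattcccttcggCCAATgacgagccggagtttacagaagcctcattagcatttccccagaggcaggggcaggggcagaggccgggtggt
ELOVL6, chr4:110198677-110198841, - strand: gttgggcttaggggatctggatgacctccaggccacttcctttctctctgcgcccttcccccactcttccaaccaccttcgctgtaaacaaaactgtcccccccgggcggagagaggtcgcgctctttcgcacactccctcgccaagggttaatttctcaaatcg
ACLY, chr17:41919023-41919272, - strand: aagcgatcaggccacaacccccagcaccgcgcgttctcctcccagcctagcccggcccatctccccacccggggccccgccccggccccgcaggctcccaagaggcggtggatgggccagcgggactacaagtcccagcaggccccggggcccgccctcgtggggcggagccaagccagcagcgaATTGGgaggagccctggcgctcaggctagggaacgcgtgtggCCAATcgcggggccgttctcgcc
ACSS2, chr20:34874739-34874941, + strand: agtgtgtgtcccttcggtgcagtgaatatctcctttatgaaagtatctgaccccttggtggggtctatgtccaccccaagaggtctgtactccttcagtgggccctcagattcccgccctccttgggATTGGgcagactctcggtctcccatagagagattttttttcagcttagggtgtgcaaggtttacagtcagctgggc
The ELOVL6, ACLY and ACSS2 stretches lie inside the annotated gene limits, because longer transcript models start further upstream, but hold no exonic base. SCD had boxes 229 and 186 bases before its RefSeq start, ACLY 65 and 23 bases before, and ACSS2 1 box at 123 bases before. ELOVL6 had none, and neither did the other ACSS2 window or the windows of FADS1, FADS2, ME1 and LPIN1.

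Over the 250 bases before each start, 16 windows of 9 members were searched on both strands, and some windows of a gene overlap. No entry for FASN was in the table. CCAAT was found in 6 of the 16 windows, belonging to SCD, ACLY, ACACA and ACSS2, against 32.0% of all 35116 windows. The GC box GGGCGG was found in 13 of 16 windows against 42.6% of all. The sterol regulatory element letters TCACNCCAC were in 0 of 16 windows against 0.883% of all, and the E-box CACGTG in 0 of 16 against 6.34%. A match is a description of letters, and the absence of one says only that these letters are not in these windows.

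The files held 1586566 to 2500551 reads on genes per library, with a median of 2230594, and between 14815 and 15718 genes with reads. The epithelial keratins KRT8, KRT18 and KRT19 and the mesenchymal markers VIM and ZEB1 were read in all 15 libraries. The epithelial markers EPCAM, KRT7 and CDH1 had reads in 1, 3 and 11 libraries, and the mesenchymal marker CDH2 in 1. Among markers of other cell types, the leukocyte marker PTPRC had reads in 4 libraries, and PECAM1, CD3E, ALB and ADIPOQ had 0 in every library. In contrast, COL1A2 (148 to 252 normalised counts), COL3A1 (20.7 to 44.8) and CD68 (0.933 to 7.54) were read in all 15, and COL1A1 in 9. The summed level of the 6 epithelial markers was 1715 to 1795 normalised counts in Ctrl, 1388 to 1574 with Lys05, 1381 to 1556 with BAQ12, 1362 to 1379.5 with BAQ13 and 1364 to 1487 with BAQ12O. That of the 16 markers of other cell types was 260.2 to 294 in Ctrl, 215 to 233 with Lys05, 183 to 205 with BAQ12, 179 to 198 with BAQ13 and 219 to 248 with BAQ12O. Both sums were lower in every treated library than in any Ctrl library. Of the 3 epithelial markers tested singly, 2 fell with BAQ13 and 1 had a positive log2 difference (0.12). The sum of the 3 mesenchymal markers overlapped with Ctrl (10244 to 10808) for every agent. It was 10389.5 to 10933 with Lys05, 9382 to 10651.5 with BAQ12, 9580 to 10692 with BAQ13 and 10098 to 10867 with BAQ12O. The part of these shifts in the results was not tested. BAQ12 replicate 3 stood apart from its group, with a root mean square log2 difference of 0.67 from the other libraries of its group over the genes tested, against 0.31 to 0.46 for the remaining 14 libraries. The effect of BAQ12 replicate 3 on the calls is given beside them. Within BAQ13, replicate 1 differed most from the others of its group (0.42, against 0.31 and 0.38 for replicates 2 and 3).

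The question was how the transcript levels of this pathway differed between vehicle and each agent. With BAQ13, 9 of the 10 genes rose against Ctrl, all but FADS2, whereas 3.58% of the 10495 genes tested rose (limma, adjusted p under 0.05). With BAQ12, FASN, SCD, ACSS2 and LPIN1 rose, 4 of 10 against 0.572% of all genes. With BAQ12O, FASN, SCD and ACSS2 rose, 3 of 10 against 0.934%. With Lys05, SCD rose, 1 of 10 against 0.0762%. None of the 10 fell against Ctrl with any agent by limma. Without BAQ12 replicate 3, 6 members rose with BAQ12, ACLY and ME1 in addition, and 2 with Lys05, FASN in addition. Of all genes, 1.29% and 0.479% were then called in either direction. The BAQ13 and BAQ12O counts stayed at 9 and 3, where 13.5% and 4.94% of all genes were called in either direction. With all 15 libraries, calls in either direction numbered 103 for BAQ12, 25 for Lys05, 606 for BAQ13 and 155 for BAQ12O, of 10495 genes. The 4 comparisons share the 3 Ctrl libraries and are not independent of each other. In RNA from whole cultures, more RNA per cell and a larger share of cells expressing a gene cannot be told apart.

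The median log2 fold change of the 10 genes was 1.01 with BAQ13, 0.48 with BAQ12, 0.26 with BAQ12O and 0.16 with Lys05, where the median of all genes tested lay between -0.0042 and 0.0018. All 3 treated libraries lay above all 3 Ctrl libraries for 9 members with BAQ13, as 14.5% of all genes did. This held for 7 members with BAQ12 against 7.75% of genes, for 7 with BAQ12O against 12.5% and for 4 with Lys05 against 8.24%. The study called genes at 2-fold or more and p of at most 0.05, by a t test. The same thresholds were applied here to the fold change and unadjusted p of the limma fit. By this rule, 5 members passed with BAQ13 (2.16% of all genes), 2 with BAQ12 (1.03%), 0 with BAQ12O (0.953%) and 0 with Lys05 (0.543%). The BAQ12 count by this rule was 1 (1.04%) without BAQ12 replicate 3, where FASN fell below 2-fold. Fold changes throughout are on the log2(normalised count + 1) scale, which understates the change of low genes.

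**Figure D1:**
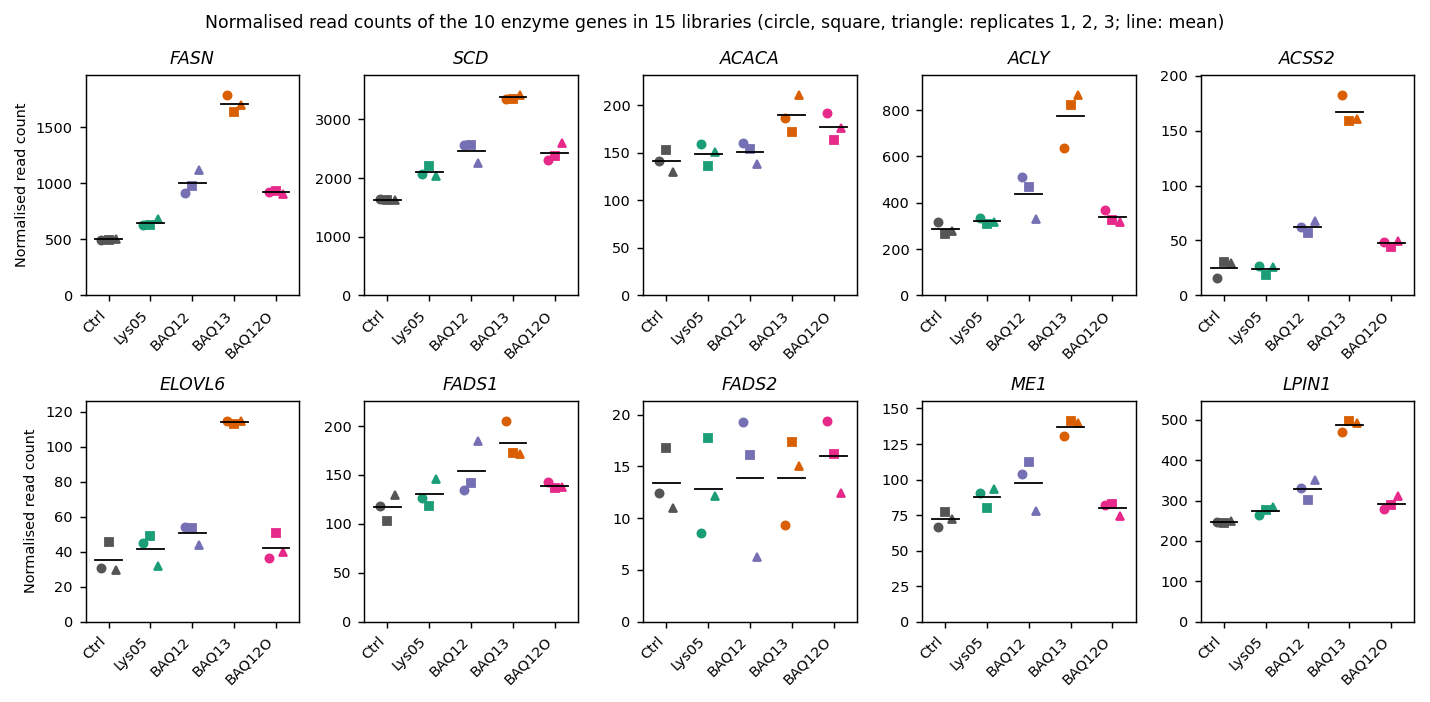
Normalised read counts (linear axes from 0) of the 10 enzyme genes in each of the 15 libraries, by group, with circles, squares and triangles for replicates 1, 2 and 3 and a line at the group mean. The BAQ13 libraries are the highest 3 for FASN, SCD, ACLY, ACSS2, ELOVL6, ME1 and LPIN1, and the FADS2 groups overlap.

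Acetyl-CoA supply held the member with the largest change. ACSS2 (ENSG00000131069, chr20:34872146-34927962), the cytosolic acetyl-CoA synthetase, had 15.8, 30.1 and 29.4 normalised counts in the Ctrl libraries, 26.6, 18.7 and 26.1 with Lys05, 62.4, 57.0 and 67.8 with BAQ12, 183, 159 and 161 with BAQ13, and 48.5, 43.9 and 49.6 with BAQ12O. The libraries of BAQ12, BAQ13 and BAQ12O all lay above every Ctrl and Lys05 library, and those of Lys05 overlapped with Ctrl. The level rose from 25.1 ± 8.08 (SD, n = 3) in Ctrl to 167 ± 13.4 (SD, n = 3) with BAQ13, a log2 fold change of 2.74 (SE 0.21, adjusted p = 1.36e-07). It rose by 1.33 (SE 0.21, adjusted p = 0.00189) with BAQ12 and by 0.94 (SE 0.21, adjusted p = 0.0272) with BAQ12O. The BAQ12 call was lost in a limma fit of only the BAQ12 and Ctrl libraries (adjusted p = 0.155). The BAQ12O call rests on single libraries: without Ctrl replicate 1, the lowest, the difference was 0.65 with adjusted p = 0.126, and without any 1 BAQ12O library the adjusted p was 0.0773 to 0.12. ACSS2 overlaps GGT7 on the other strand, which had 1.04 to 17.6 normalised counts, and the counting is not stated to use strand.

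ACLY (ENSG00000131473, chr17:41866908-41930542), ATP citrate lyase, had 318, 267 and 278 normalised counts in Ctrl, 333, 309 and 316 with Lys05, 511, 468 and 329 with BAQ12, 637, 823 and 867 with BAQ13, and 369, 324 and 318 with BAQ12O. The BAQ13 libraries were above all others, and BAQ12 replicate 3 lay far below the other libraries of its group and within the range of Lys05. ACLY rose with BAQ13 by 1.42 (SE 0.14, adjusted p = 3.89e-06), from 288 ± 26.9 to 776 ± 122 (SD, n = 3 each). With BAQ12 the log2 difference was 0.58 (SE 0.14, adjusted p = 0.0701), and without BAQ12 replicate 3 it was 0.77 with adjusted p = 3.16e-05. In a count model of the recovered reads (edgeR, all libraries) the difference was 0.61 with adjusted p = 0.0473. With Lys05 and BAQ12O the differences were 0.16 (95% interval -0.15 to 0.46) and 0.23 (-0.07 to 0.53).

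ME1 (ENSG00000065833, chr6:83210389-83431071), the cytosolic malic enzyme that yields NADPH, had 66.4, 77.0 and 72.5 normalised counts in Ctrl, 90.5, 80.2 and 93.3 with Lys05, 104, 112 and 77.9 with BAQ12, 131, 141 and 140.0 with BAQ13, and 81.9, 82.9 and 74.4 with BAQ12O. All Lys05, BAQ12 and BAQ13 libraries lay above every Ctrl library, BAQ12 replicate 3 by less than 1 normalised count. ME1 rose with BAQ13 by 0.92 (SE 0.14, adjusted p = 0.000273). With BAQ12 the difference was 0.42 (SE 0.14, adjusted p = 0.209), or 0.58 with adjusted p = 0.017 without BAQ12 replicate 3. It was 0.29 with Lys05 (adjusted p = 0.993) and 0.15 with BAQ12O (adjusted p = 0.702).

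The core of the pathway showed 1 large and 1 small change. FASN (ENSG00000169710, chr17:82078333-82098332), the fatty acid synthase, had 496, 495 and 506 normalised counts in Ctrl, 626, 624 and 684 with Lys05, 915, 973 and 1122 with BAQ12, 1794, 1634 and 1696 with BAQ13, and 926, 935 and 903 with BAQ12O. Every treated library lay above every Ctrl library, and BAQ13 lay above all others. The level was 499 ± 5.97 in Ctrl and 1708 ± 80.3 with BAQ13 (SD, n = 3 each), a 3.42-fold increase (log2 1.77, SE 0.08, adjusted p = 3.97e-10). FASN rose 2.00-fold with BAQ12 (log2 1.00, SE 0.08, adjusted p = 3.16e-07) and 1.85-fold with BAQ12O (log2 0.88, SE 0.08, adjusted p = 1.39e-05). The BAQ12 change was 0.92 (adjusted p = 2.83e-10) without BAQ12 replicate 3, the highest library of its group. With Lys05 the log2 difference was 0.37 (SE 0.08, adjusted p = 0.0795). This value had an adjusted p of 0.00159 when BAQ12 replicate 3, which enters the shared estimate of the spread, was left out. In a limma fit of only the Lys05 and Ctrl libraries the adjusted p was 2.57e-05.

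ACACA (ENSG00000278540, chr17:37084988-37406818), acetyl-CoA carboxylase 1, changed less. It had 141, 153 and 129 normalised counts in Ctrl, 159.7, 136 and 150.3 with Lys05, 160.5, 154 and 138 with BAQ12, 187, 171 and 211 with BAQ13, and 192, 163 and 176 with BAQ12O. The BAQ13 and BAQ12O libraries lay above every Ctrl library, and the BAQ13 and BAQ12O ranges overlapped. ACACA rose with BAQ13 by 0.42 (SE 0.11, adjusted p = 0.0344), a call lost on leaving out 5 of the 6 Ctrl and BAQ13 libraries in turn (adjusted p 0.0531 to 0.164). With BAQ12O the difference was 0.33 (95% interval 0.09 to 0.56, adjusted p = 0.206), with BAQ12 0.095 and with Lys05 0.076.

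Elongation and first desaturation were also higher with BAQ13. SCD (ENSG00000099194, chr10:100347124-100364834), the stearoyl-CoA desaturase, had 1646, 1620.2 and 1620.2 normalised counts in Ctrl, 2075, 2200.5 and 2042 with Lys05, 2557, 2569 and 2259.7 with BAQ12, 3356, 3349 and 3423 with BAQ13, and 2304, 2372 and 2591 with BAQ12O. The 3 Ctrl libraries were nearly equal and lay below every treated library, and Lys05 lay below every library of the other agents. SCD rose from 1629 ± 14.6 in Ctrl to 3376 ± 40.7 with BAQ13 (SD, n = 3 each), a 2.07-fold increase (log2 1.05, SE 0.07, adjusted p = 1.84e-08). It rose by 0.59 (SE 0.07, adjusted p = 7.00e-05) with BAQ12 and by 0.57 (SE 0.07, adjusted p = 0.000242) with BAQ12O. With Lys05 it rose by 0.37 (SE 0.07, adjusted p = 0.025). The Lys05 call was lost on leaving out each of the 6 Ctrl and Lys05 libraries in turn, with log2 differences of 0.34 to 0.39 and adjusted p of 0.0838 to 0.234.

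ELOVL6 (ENSG00000170522, chr4:110045846-110199199), the elongase of long saturated chains, had 30.7, 45.8 and 29.4 normalised counts in Ctrl, 44.7, 48.9 and 31.7 with Lys05, 54.1, 53.6 and 44.0 with BAQ12, 115, 113 and 115 with BAQ13, and 36.7, 50.5 and 40.0 with BAQ12O. The BAQ13 libraries lay above all others, and the other groups overlapped with Ctrl. ELOVL6 rose with BAQ13 by 1.69 (SE 0.20, adjusted p = 2.13e-05). The differences with BAQ12 (0.53, 95% interval 0.11 to 0.94), BAQ12O (0.27, -0.14 to 0.69) and Lys05 (0.24, -0.17 to 0.66) did not pass the threshold.

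The desaturases of polyunsaturated chains followed. FADS1 (ENSG00000149485, chr11:61799625-61829318), the delta-5 desaturase, had 119, 103 and 129 normalised counts in Ctrl, 127, 119 and 146 with Lys05, 135, 142 and 185 with BAQ12, 205, 172 and 171 with BAQ13, and 142, 136 and 138 with BAQ12O. The BAQ12, BAQ13 and BAQ12O libraries lay above every Ctrl library. FADS1 rose with BAQ13 by 0.64 (SE 0.13, adjusted p = 0.00676), or by 0.55 with adjusted p = 0.0519 without Ctrl replicate 2. The other differences from Ctrl were 0.16 to 0.38 and did not pass the threshold.

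FADS2 (ENSG00000134824, chr11:61792980-61867354), the delta-6 desaturase, rested on 5 to 21 reads per library. It had 12.5, 16.7 and 11.02 normalised counts in Ctrl, 8.52, 17.7 and 12.1 with Lys05, 19.3, 16.2 and 6.28 with BAQ12, 9.33, 17.3 and 15.1 with BAQ13, and 19.4, 16.2 and 12.4 with BAQ12O. All groups overlapped, and the log2 difference with BAQ13 was 0.028 with a 95% interval of -0.76 to 0.81, so that a change as large as that of FADS1 was not detectable at this depth. FADS1 and FADS2 overlap on opposite strands, and FADS2 also spans FEN1 (12.6 to 51.4 normalised counts) on its own strand. Since the counting is not stated to use strand, the split of reads between these genes is uncertain.

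LPIN1 (ENSG00000134324, chr2:11677595-11827409), a phosphatidate phosphatase, had 247, 246 and 249 normalised counts in Ctrl, 264, 276 and 285 with Lys05, 331, 302 and 350.4 with BAQ12, 471, 498 and 492 with BAQ13, and 278, 289.8 and 310.2 with BAQ12O. The Ctrl libraries were nearly equal and lay below every treated library, and the BAQ13 libraries lay above all others. LPIN1 rose from 247 ± 1.56 to 487 ± 13.9 with BAQ13 (SD, n = 3 each), a log2 fold change of 0.97 (SE 0.08, adjusted p = 4.27e-07). It rose by 0.40 with BAQ12 (SE 0.08, adjusted p = 0.0204), a call lost without any 1 Ctrl library or without BAQ12 replicate 1 (adjusted p 0.0589 to 0.111). The call was also lost in a limma fit of only the BAQ12 and Ctrl libraries (adjusted p = 0.395). With BAQ12O and Lys05 the differences were 0.24 (adjusted p = 0.197) and 0.15 (adjusted p = 0.999).

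**Figure D2:**
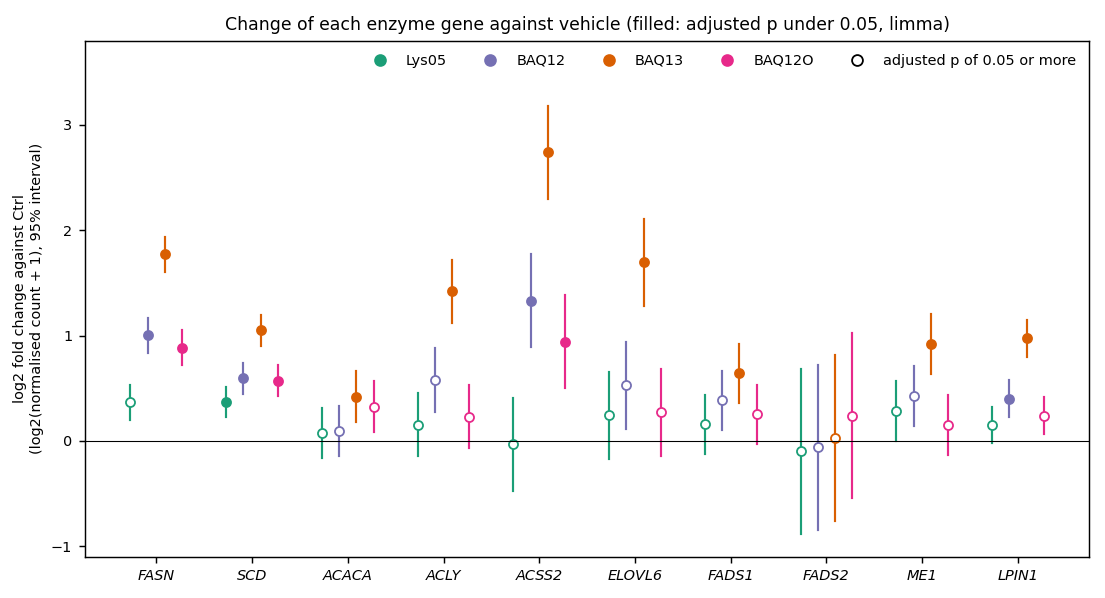
Log2 fold change against Ctrl of each of the 10 genes for the 4 agents, on the log2(normalised count + 1) scale, with 95% intervals from limma and filled points for an adjusted p under 0.05. BAQ13 has 9 filled points, from 0.42 for ACACA to 2.74 for ACSS2, and the FADS2 intervals all include 0.

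Of the 10 genes, the number above every Ctrl library was 9, 10 and 9 in the 3 BAQ13 libraries, 10, 9 and 7 in the BAQ12 libraries, 9, 9 and 7 in the BAQ12O libraries, and 6, 6 and 5 in the Lys05 libraries. Of all genes tested, 31.2% to 36.1% lay above every Ctrl library in a single BAQ13 library, 28.3% to 39% in BAQ12, 30.6% to 32.3% in BAQ12O and 27.8% to 28% in Lys05. FADS2 was below every Ctrl library in Lys05 replicate 1, BAQ12 replicate 3 and BAQ13 replicate 1, and no other member was below in any library.

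**Figure D3:**
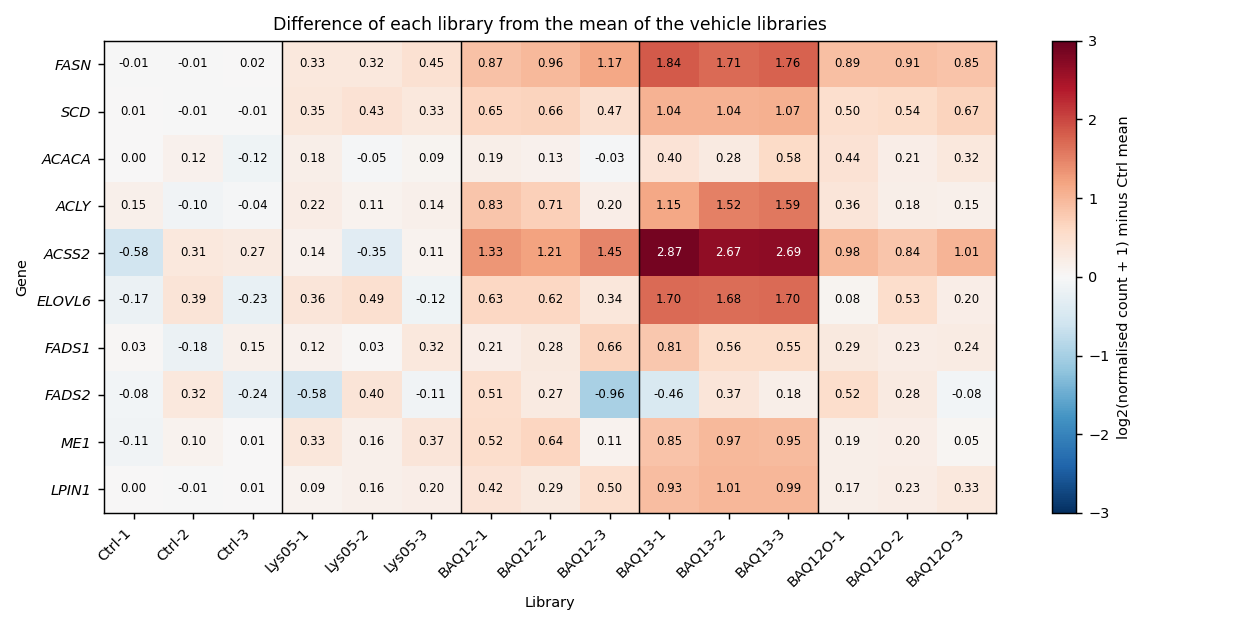
Log2(normalised count + 1) minus the mean of the 3 Ctrl libraries, for each of the 10 genes (rows) in each of the 15 libraries (columns), with the value in each cell and red for higher. In BAQ13, ACSS2 is 2.67 to 2.87, FASN 1.71 to 1.84 and ELOVL6 1.68 to 1.70, and BAQ12 replicate 3 is lower than the other BAQ12 libraries for ACLY (0.20) and FADS2 (-0.96).

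The agents were given at matched dose and time, and all 6 pairs were compared. The p-values were adjusted over genes within each pair, not over pairs. BAQ13 exceeded BAQ12 for FASN, SCD, ACLY, ACSS2, ELOVL6 and LPIN1, 6 of 10 genes, whereas 0.505% of all genes were higher. The largest difference was that of ACSS2, 1.41 (SE 0.21, adjusted p = 0.00192), followed by ELOVL6 at 1.17 (SE 0.20, adjusted p = 0.00593). FASN was higher by 0.77 (SE 0.08, adjusted p = 4.05e-05). For ME1 (0.50, 95% interval 0.21 to 0.78), ACACA (0.33, 0.09 to 0.57), FADS1 (0.26, -0.02 to 0.54) and FADS2 (0.089, -0.70 to 0.87) the difference did not pass the threshold, which does not show equal levels. The ACLY difference of 0.84 (adjusted p = 0.00603) was 0.65 (adjusted p = 0.000438) without BAQ12 replicate 3, and its call was lost without BAQ13 replicate 2 (adjusted p = 0.0586) or 3 (adjusted p = 0.0547). The same number of members, 6, were called without BAQ12 replicate 3, where 3.1% of all genes were called in either direction. In a limma fit of only the BAQ13 and BAQ12 libraries, 2 members were called, with 9 genes called in all. The calls lost there were FASN (adjusted p = 0.0685), SCD (0.255), ACLY (0.42) and LPIN1 (0.207).

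BAQ12O was lower than BAQ13 for 7 of 10 genes, FASN, SCD, ACLY, ACSS2, ELOVL6, ME1 and LPIN1, whereas 0.924% of all genes were lower. ACSS2 differed by -1.80 (SE 0.21, adjusted p = 6.93e-05), ELOVL6 by -1.42 (SE 0.20, adjusted p = 0.000485) and FASN by -0.89 (SE 0.08, adjusted p = 3.63e-06). ACACA differed by -0.096 with a 95% interval of -0.34 to 0.14. FADS1 was also lower (-0.39, adjusted p = 0.0461) without BAQ12 replicate 3, which made 8 members, with 3.65% of all genes called in either direction.

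Between BAQ12O and BAQ12, 0 of the 10 genes passed the threshold by limma, and also 0 by edgeR and by DESeq2. Of all genes only 0.229% passed by limma, so 0 of 10 does not set the members apart from other genes. ACLY was the 1 member with an unadjusted p under 0.05, as 8.38% of all genes had. The intervals were narrow for SCD (-0.023, -0.17 to 0.12) and FASN (-0.12, -0.28 to 0.05), and wider for ACSS2 (-0.39, -0.83 to 0.05). ACSS2 was lower in every BAQ12O library than in any BAQ12 library. Without BAQ12 replicate 3, ACLY was lower with BAQ12O by 0.54 on the log2 scale (adjusted p = 0.00952), and 1 member was called against 0.507% of all genes.

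Against Lys05, BAQ13 was higher for 7 of 10 genes, all but ACACA, FADS1 and FADS2, whereas 1.88% of all genes were higher. ACSS2 was higher by 2.78 (SE 0.21, adjusted p = 2.25e-07) and FASN by 1.40 (SE 0.08, adjusted p = 7.30e-09). ME1, at 0.64 (adjusted p = 0.0132), lost its call without Lys05 replicate 2 (adjusted p = 0.0879) or without BAQ13 replicate 2 or 3 (adjusted p = 0.0709 and 0.0528). Without BAQ12 replicate 3, 9 members were called, ACACA and FADS1 in addition, as were 7.61% of all genes in either direction.

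BAQ12 was higher than Lys05 for FASN (0.63, SE 0.08, adjusted p = 0.00162) and ACSS2 (1.36, SE 0.21, adjusted p = 0.00658), 2 of 10 genes against 0.133% of all genes. In a limma fit of only the BAQ12 and Lys05 libraries both had adjusted p = 0.342, and 0 of all genes were called. Without BAQ12 replicate 3, SCD (0.28, adjusted p = 0.0487) and ACLY (0.61, adjusted p = 0.00339) were also higher. That made 4 members against 0.244% of all genes called in either direction. Without Lys05 replicate 2 the ACSS2 call was lost (adjusted p = 0.0726). BAQ12O was higher than Lys05 for FASN (0.52, SE 0.08, adjusted p = 0.00302), 1 of 10 against 0.219%. ACSS2 differed by 0.98 with adjusted p = 0.0795, and passed without Ctrl replicate 1 (adjusted p = 0.00733) or without BAQ12 replicate 3 (adjusted p = 0.00785), neither of which belongs to the pair. By the rule of at least 2-fold and an unadjusted p of at most 0.05, the members that passed numbered 2 for BAQ13 against BAQ12 (0.619% of all genes), 0 for BAQ12O against BAQ12 (0.476%), 3 for BAQ12O against BAQ13 (0.896%), 1 for BAQ12 against Lys05 (0.495%), 4 for BAQ13 against Lys05 (1.29%) and 0 for BAQ12O against Lys05 (0.6%).

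**Figure D4:**
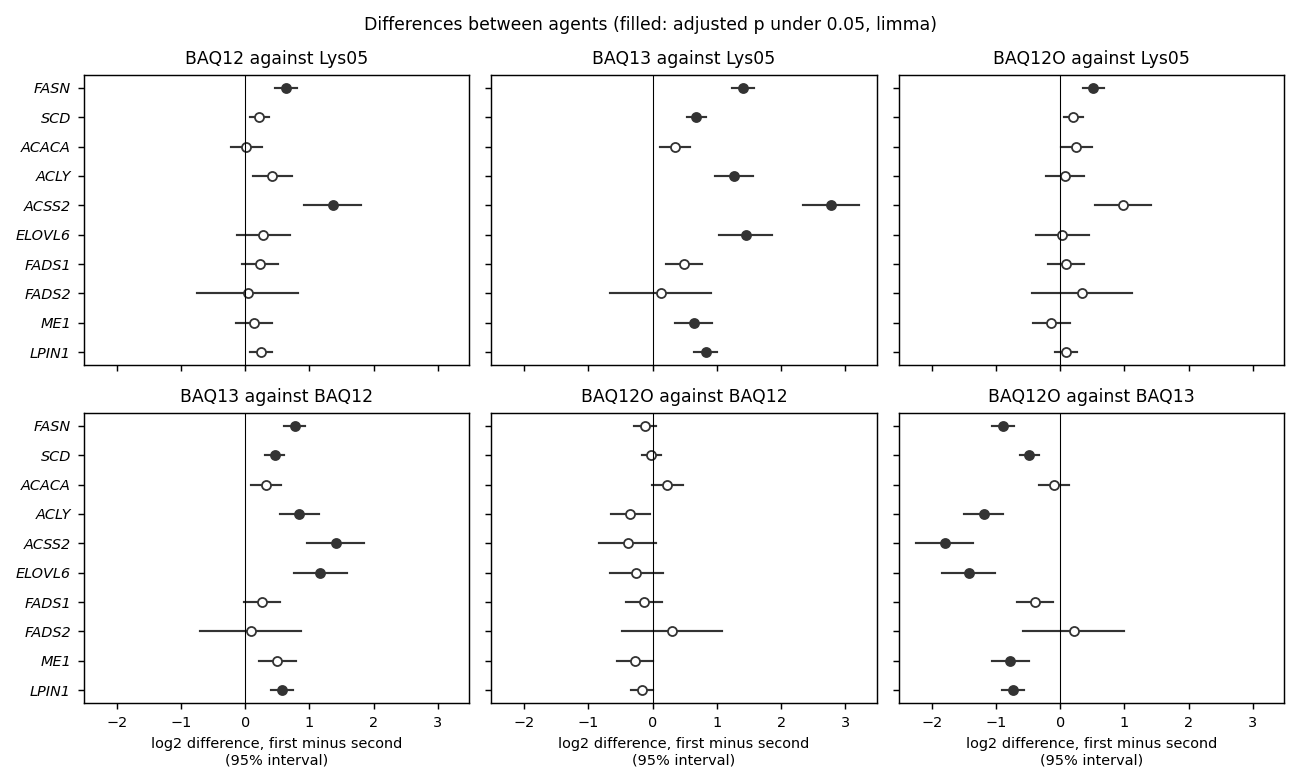
Log2 differences between agents (first minus second) for the 10 genes, in 6 panels, on the log2(normalised count + 1) scale with 95% intervals from limma and filled points for an adjusted p under 0.05. The panel of BAQ13 against BAQ12 has 6 filled points, that of BAQ12O against BAQ12 has 0, and that of BAQ12O against BAQ13 has 7, all below 0.

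By mean level, FASN and SCD both ranked Ctrl, Lys05, BAQ12O, BAQ12 and BAQ13 from lowest to highest. For FASN the steps from Lys05 to BAQ12O and from BAQ12 to BAQ13 passed the threshold, and those from Ctrl to Lys05 and from BAQ12O to BAQ12 did not. For SCD the steps from Ctrl to Lys05 and from BAQ12 to BAQ13 passed, whereas Lys05 and BAQ12O (0.20, adjusted p = 0.481) and BAQ12O and BAQ12 did not differ beyond the threshold. BAQ13 had the highest mean of every member except FADS2, whose highest mean was that of BAQ12O (16.0 ± 3.50 normalised counts, SD, n = 3).

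Other genes of lipid metabolism were read in fixed lists, described by counts beside the percentages given above. Of the 16 tested genes of further fatty acid synthesis, elongation and desaturation, 2 rose with BAQ13 and 0 fell. These were SLC25A1, the mitochondrial citrate carrier (0.60, SE 0.12, adjusted p = 0.00494), and HSD17B12, a reductase of chain elongation (0.52, SE 0.08, adjusted p = 0.000284). The median of this list was 0.054. Of 12 NADPH-supplying genes, 3 rose, namely PGD of the pentose phosphate pathway (1.19), cytosolic isocitrate dehydrogenase IDH1 (0.93) and transketolase TKT (0.41), with a list median of -0.033.

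Of 10 acyl-CoA synthetases, ACSL1 (1.33, SE 0.25) and ACSL4 (0.82, SE 0.15) rose with BAQ13. Of 18 glycerolipid assembly genes, PCYT2, an enzyme of phosphatidylethanolamine synthesis, rose (1.72, SE 0.23, adjusted p = 9.78e-05). Of 24 fatty acid oxidation genes, HADHA, the mitochondrial trifunctional protein subunit, rose (0.69, SE 0.11), and of 7 lipid droplet and lipolysis genes PNPLA3 rose (1.02, SE 0.18). None of these lists held a gene that fell with BAQ13, and 10 of the 87 tested genes of the 6 lists rose. Of all genes 3.58% rose, so 1 of 18 and 1 of 24 are near the background and describe single genes, not these lists. With Lys05, BAQ12 and BAQ12O, 0 of the 87 passed by limma, where 7, 16 and 13 had an unadjusted p under 0.05. The share of all genes with such a p is not given for comparisons against Ctrl, so counts by it are not set against a background. For BAQ12, edgeR and DESeq2 each called 1 gene, and both called 0 for Lys05 and BAQ12O. Without BAQ12 replicate 3, the BAQ13 counts of higher and lower genes were 3 and 0 in the further synthesis list, 4 and 2 for NADPH supply, 2 and 0 for acyl-CoA synthetases, 2 and 1 for glycerolipid assembly, 3 and 2 for fatty acid oxidation, and 2 and 1 for lipid droplets, where 13.5% of all genes were called.

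Among 15 regulators of lipogenesis, 4 rose and 1 fell with BAQ13. INSIG1, the sterol-regulated retention protein of SREBPs, went from 121 ± 12.1 to 537 ± 67.7 normalised counts (SD, n = 3 each), a log2 change of 2.14 (SE 0.13, adjusted p = 6.31e-09). SREBF2, which encodes SREBP2, rose by 0.63 (SE 0.12, adjusted p = 0.00248). RXRA, the retinoid X receptor alpha, rose by 0.47, and is named after its value was seen. SREBF1, which encodes SREBP1, fell by 0.72 on the log2 scale (SE 0.18, adjusted p = 0.0194), from 55.4 ± 7.86 to 33.0 ± 2.68 normalised counts. With BAQ12, INSIG1 rose by 0.63 (adjusted p = 0.0215), a call lost under the replicate block and in a fit of only those 6 libraries. The SREBF1 differences were -0.45 with BAQ12, 0.13 with BAQ12O and -0.073 with Lys05, none past the threshold.

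Of 22 cholesterol synthesis genes, 18 rose and 0 fell with BAQ13, with a median of 1.65, and HMGCS1 (3.39), MSMO1 (2.84) and MVD (2.83) rose most. In the same list 10 rose with BAQ12, 7 with BAQ12O and 0 with Lys05, where 2 genes had an unadjusted p under 0.05 by limma and edgeR and DESeq2 called 0. Without BAQ12 replicate 3, the counts for BAQ13, BAQ12, BAQ12O and Lys05 were 20, 13, 9 and 1. Of 6 tested liver X receptor targets, 4 fell and 1 rose with BAQ13, where 2.19% of all genes fell. ABCG1 (-1.90, SE 0.30) and ABCA1 (-1.69, SE 0.36), both sterol exporters, MYLIP (-0.88, SE 0.17), a ubiquitin ligase, and SREBF1, which is in both lists, fell, and the apolipoprotein gene APOC1 rose (0.90, SE 0.16). ABCA1 averaged 9.64 normalised counts in Ctrl and 2.35 with BAQ13, where 3 reads correspond to 2.49 to 4.14 normalised counts, depending on the library.

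**Figure D5:**
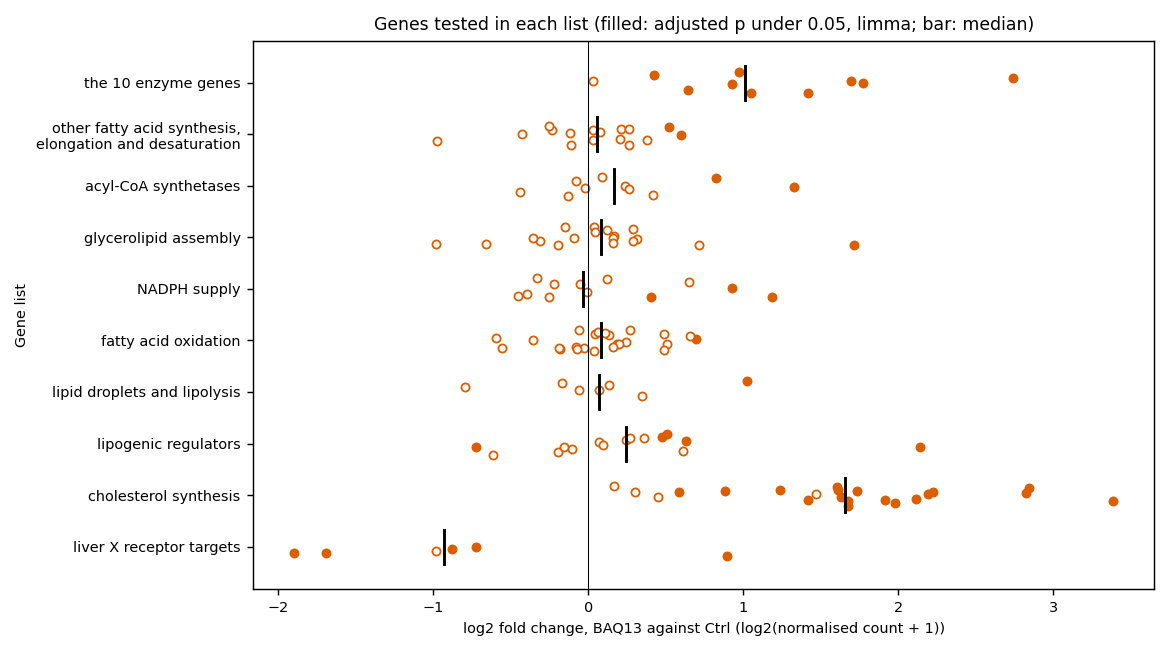
Log2 fold change with BAQ13 against Ctrl, on the log2(normalised count + 1) scale, of every tested gene in the 10 enzyme genes and 9 other lists, with filled points for an adjusted p under 0.05 and a bar at each median. The medians of the 10 enzyme genes (1.01) and of cholesterol synthesis (1.65) are the highest, and 18 of 22 cholesterol synthesis genes are filled.

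The genes with profiles nearest to a member were found for the 3 members with the largest change, as the smallest root mean square difference over the 12 treated libraries in log2(normalised count + 1) minus the Ctrl mean. For ACSS2 they were MSMO1 (0.24), MVD (0.30) and LSS (0.40), which are sterol synthesis enzymes. For FASN they were the long noncoding RNA UCA1 (0.19), EBP (0.20) and SQLE (0.21), the last 2 also of sterol synthesis. For ELOVL6 they included ACAT2 (0.24) and BIRC3 (0.27). The 12 libraries share their depth, scaling and Ctrl baseline across genes, and these distances are given as a description.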

How the data were processed

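Gene expression was measured by RNA sequencing in 15 libraries of MIA PaCa-2 cells, with groups as labelled. The values the authors deposited are a normalised signal, that is, reads on a gene scaled by 1 factor for each library. Dividing by the smallest step of a library gave whole reads for 100% of values above 0 (tolerance 0.01 reads). The submitters' processing notes name STAR, HTSeq, DESeq2 and GRCh38/hg38 without versions. The annotation release is not given in the sources used here. The labels name a 3′ mRNA kit and the study's methods a stranded paired-end kit, which bears on comparisons of level between genes, and none was made. The 92 spike-in identifiers had 0 reads and stayed out.

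Genes were filtered with filterByExpr on the recovered reads (minimum count 10, minimum total 15), which kept 10495. limma (lmFit, eBayes with trend) was fitted to log2(signal + 1) over all 15 libraries without covariates, in 10 comparisons, with Benjamini-Hochberg adjustment over the genes tested and a threshold of 0.05. The tests were run on simulated counts in which each gene had the same spread in every library. No outlying library was simulated, so that check does not cover the effect of BAQ12 replicate 3. Intervals are 95% from the same fit. As an alternative, edgeR (quasi-likelihood, recovered reads) called 689 genes with BAQ13 against Ctrl, where limma called 606. The total of 1586566 to 2500551 reads per library sets the precision: 3 reads, the limit a count of 0 allows, equal 2.49 to 4.14 normalised counts, for counting error only.

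The members and gene lists were chosen with earlier results of these data known. All members were described. Of other lists, the up to 3 largest increases and decreases with an adjusted p under 0.05 against Ctrl were named, with INSIG1, SREBF1 and SREBF2. A few genes that this rule names are not reported here. Alternatives were edgeR, DESeq2, TMM factors, pseudocounts of 0.1 and 5, no filter, at least 10 reads in every library, a fit of 6 libraries at a time, blocking on replicate number, a rule of at least 2-fold and unadjusted p of at most 0.05, and leaving out each library. The list counts without BAQ12 replicate 3 were added after seeing the data. Gene positions are from GENCODE release 29 (GRCh38), where 56531 of 60107 identifiers were found. The fits used limma 3.58.1, edgeR 4.0.16 and DESeq2 1.42.0 under R 4.3.3, and figures matplotlib 3.10.9 under Python 3.11.15.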

Additional observations from a re-analysis of the deposited data

How the results depend on the processing

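No change of a member reversed its direction where it was called. TMM factors, pseudocounts of 0.1 and 5 and the minimum of 10 reads in every library, which leaves out FADS2, changed no call of a member. The number of members called changed as follows, and the cause was not tested beyond what each setting leaves out. Under the rule of at least 2-fold and unadjusted p of at most 0.05, it was 0 for Lys05, 2 for BAQ12, 5 for BAQ13 and 0 for BAQ12O against Ctrl, 1, 4 and 0 for BAQ12, BAQ13 and BAQ12O against Lys05, 2 for BAQ13 against BAQ12, and 3 for BAQ12O against BAQ13. With only the 6 libraries compared, it was 2 for Lys05, 2 for BAQ12 and 4 for BAQ12O against Ctrl, 0 for BAQ12, 8 for BAQ13 and 3 for BAQ12O against Lys05, and 2 for BAQ13 against BAQ12. With no filter on low values it was 0 for Lys05 and 8 for BAQ13 against Ctrl, where ACACA was lost (adjusted p = 0.0625). For BAQ12 against Ctrl it was 5 with edgeR and with DESeq2, and for BAQ12O against Lys05 2 with DESeq2. Leaving out 1 library at a time, it ranged from 0 to 2 for Lys05, 3 to 6 for BAQ12, 7 to 9 for BAQ13 and 2 to 3 for BAQ12O against Ctrl, 1 to 4 for BAQ12, 6 to 9 for BAQ13 and 1 to 2 for BAQ12O against Lys05, 5 to 6 for BAQ13 and 0 to 1 for BAQ12O against BAQ12, and 7 to 8 for BAQ12O against BAQ13. All genes called for Lys05, BAQ12, BAQ13 and BAQ12O against Ctrl numbered 25, 103, 606 and 155. They numbered 51, 137, 1436 and 526 without BAQ12 replicate 3, and 114, 31, 938 and 881 with only the 6 libraries compared. In limma fits of only those 6, FASN with Lys05 (adjusted p = 2.57e-05) and ACACA with BAQ12O (0.0355) were gained against Ctrl. Against Lys05, FADS1 with BAQ13 (0.0366), and SCD (0.0403) and ACSS2 (0.00344) with BAQ12O were gained.

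The deviations of samples with the same replicate number had correlations of -0.49 to 0.20, with 0 comparisons in which every pair exceeded 0.1. With 3 libraries per group, these values cannot show whether samples of the same number were handled together. With the replicate block, 0 members were called for Lys05 against Ctrl. It moved 3 single calls, SCD with Lys05 (adjusted p = 0.0787), ACACA with BAQ13 (0.0512) and ACSS2 with BAQ12O (0.0508), and changed no other call of a member. FADS2, at 5 to 21 reads, is limited by depth.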
